A study of Homo sapiens with 2 samples.

Results

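The Krüppel-like factors (KLFs) were read out on expression arrays of HepG2, a human hepatocellular carcinoma (HCC) line, after berberine treatment. The members were KLF2, KLF4, KLF5, KLF6, KLF9, KLF10, KLF11, KLF13, KLF15 and KLF16, taken as a list of 10 genes out of 20039 genes with a probe. Every probe that the platform annotation assigned to them was used. Of the 10 genes, 9 had a probe and 12 probes were found, and KLF11 is not listed in the annotation used here. One culture received 40 µM berberine chloride, a plant alkaloid, for 4 h, and the control culture received 0.08% DMSO, the solvent of berberine, for the same time. Total RNA of each was hybridized to 1 Illumina BeadChip, so there were 2 arrays in all, with no replicates and no test between the groups. Each difference below compares these 2 arrays, and their number limits the precision. HepG2 is a tumour line that keeps many hepatocyte genes and does not stand for normal hepatocytes. All 8 hepatocyte markers examined, ALB and APOA1 among them, were detected on both arrays, and none differed by over 1.5-fold.

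KLFs are transcription factors that bind GC boxes and CACCC boxes in DNA through zinc fingers at their C terminus, and they share this preference with the SP factors. Their N-terminal parts differ and recruit either coactivators or corepressors such as SIN3A and CtBP. Several KLFs act in liver metabolism or in growth control, and several are induced quickly by hormones, growth factors or stress.

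The array holds 47231 probes. A probe was called detected when its detection p, the share of negative controls at least as bright, was under 0.01, which held for 15341 probes (32.5%) in control and 15415 (32.6%) in berberine-treated cells. The lowest intensity of a detected probe was 142 and 152, respectively. Of the 9 KLFs with a probe, KLF2, KLF4, KLF6 and KLF13 were detected on both arrays, KLF10 and KLF15 passed on berberine alone, 0 genes passed on control alone, and KLF5, KLF9 and KLF16 passed on neither. For all 20039 genes, the share detected with berberine alone was 1.9% and with control alone 1.79%. Differences are given in log2 after background correction and quantile normalization (the main values), and the deposited normalized intensity is set beside them. Its method is not named, but its values look free of background subtraction. The undetected KLF16, for example, had 116 in control cells, against a non-normalized 109. After berberine treatment, 353 (3.87%) of the 9128 genes detected on both arrays passed 1.5-fold upward and 373 (4.09%) passed it downward, against 131 (1.44%) and 92 in the deposited values. Of the 4 KLFs detected on both arrays, 1 was over 1.5-fold higher and 0 were lower. Their median log2 difference was 0.13, against -0.01 over all 9128 genes.

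Sequences before annotated starts of the KLF genes are described first, because GC boxes, the sites that KLF and SP proteins themselves bind, lie in most of them. RefSeq windows of 250 bases directly before an annotated start (build GRCh38.p14) were found for 9 of the 10 genes, with 11 windows in all. Both windows of KLF11, that of KLF16 and the KLF5 window with a GC box lie before starts inside the gene. The other windows end directly before the gene. A window for KLF10 is not shown here. A GC box (GGGCGG or its complement CCGCCC) was present in 9 of the 11 windows and in 42.6% of 35116 such windows of all genes. These 9 windows were rich in G and C, from 69.2% (KLF4) to 86.4% (KLF16). The windows without a GC box had 40.8% (one of KLF5) and 32.4% (KLF9). No windows of matched base content were compared, and KLF5 and KLF11 have 2 windows each. A CACCC box (CACCC or GGGTG) was present in 4 of 11 and in 54.7% of all windows. The palindromic E-box CACGTG was found in 4 of the 11 windows and in 6.34% of all windows, and these were the windows of KLF6, KLF15 and KLF4 and one of the KLF11 windows. The windows of KLF6 and KLF15 are printed because these genes had the largest differences among the members. That of KLF4 is printed because it holds the same E-box. KLF4 differed by less than 1.5-fold at the probe detected on both arrays. The window of KLF2 is printed for its MEF2 site. The printed windows are written 5′ to 3′ on the strand of the gene and end at the base before its annotated start. Capitals mark GC boxes, the E-box CACGTG and the MEF2 site.
KLF6, chr10:3785210-3785459, minus strand: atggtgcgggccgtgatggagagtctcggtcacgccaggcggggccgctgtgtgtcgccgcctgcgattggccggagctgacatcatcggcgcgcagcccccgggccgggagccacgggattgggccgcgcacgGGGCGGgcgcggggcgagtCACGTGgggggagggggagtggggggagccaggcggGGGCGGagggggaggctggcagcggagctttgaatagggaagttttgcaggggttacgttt
KLF15, chr3:126357409-126357658, minus strand: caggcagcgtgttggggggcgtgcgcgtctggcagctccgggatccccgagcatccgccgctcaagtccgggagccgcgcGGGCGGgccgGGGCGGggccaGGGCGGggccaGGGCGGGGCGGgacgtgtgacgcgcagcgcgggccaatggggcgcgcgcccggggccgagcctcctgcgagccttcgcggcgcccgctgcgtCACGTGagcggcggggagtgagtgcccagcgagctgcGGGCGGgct
KLF4, chr9:107489770-107490019, minus strand: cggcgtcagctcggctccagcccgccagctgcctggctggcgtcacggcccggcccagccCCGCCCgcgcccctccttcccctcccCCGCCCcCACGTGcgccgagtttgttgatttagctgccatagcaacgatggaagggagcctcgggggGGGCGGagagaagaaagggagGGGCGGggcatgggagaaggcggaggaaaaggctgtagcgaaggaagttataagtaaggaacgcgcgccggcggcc
KLF2, chr19:16324576-16324825, plus strand: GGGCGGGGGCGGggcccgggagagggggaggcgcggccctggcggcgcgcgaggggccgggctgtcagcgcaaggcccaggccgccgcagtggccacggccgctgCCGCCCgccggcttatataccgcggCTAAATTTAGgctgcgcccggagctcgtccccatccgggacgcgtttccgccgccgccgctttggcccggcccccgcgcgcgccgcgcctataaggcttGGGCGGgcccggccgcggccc

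The KLF6 window held 2 GC boxes, with the E-box between them at 97 to 92 bases before the start. The KLF15 window held 6 GC boxes. Of these, 5 stood close together between 170 and 128 bases before the start, the last pair sharing a base, and the E-box lay at 46 to 41. The E-box of KLF15 shares bases with a CGTCA sequence, the complement of TGACG, which is part of the cAMP response element. TGACG or CGTCA occurred in 6 of the 11 KLF windows and in 21.2% of all windows. The KLF4 window held 4 GC boxes, and its E-box at 157 to 152 bases lay next to one of them. The KLF2 window held 4 GC boxes and the site CTAAATTTAG of MEF2 factors, through which the kinase ERK5 induces KLF2 in endothelial cells. A MEF2 site was present in 1 of the 11 KLF windows and in 2.8% of all windows, and a CArG box, the site of serum response factor, in 0 of 11 and in 1.16%. Both strands were searched for each motif. These matches are descriptions of the letters in the windows, and binding was not measured.

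KLF6 was the one KLF detected on both arrays and over 1.5-fold higher. It is a widely expressed factor that was described as a growth suppressor, and it is induced quickly in stellate cells of the injured liver. The gene lies on chromosome 10 (3775996 to 3785209, minus strand, GRCh38.p14), and the array has 1 probe for it, ILMN_1735014. Its intensity was 1312 in control cells and 3602 after berberine treatment, with a detection p of 0 on both arrays. The signal was thus well above the detection limit on both arrays, at percentile 94.7 of all probe intensities in control and 97.8 after treatment. The background-corrected values were 10.30 and 11.72, a log2 difference of 1.43 or a 2.69-fold increase. The deposited intensities were 1386 and 3518, a 2.54-fold increase. Of the 9128 genes detected on both arrays, 40 (0.438%) had a larger increase than KLF6. Since the arrays have no replicates, the nearest measure of error is the SD of a single probe, taken from pairs of probes of one gene. It was 0.18 on the log2 scale over the 731 brightest of 2193 pairs, to which the level of KLF6 belongs, and it leaves out the spread between cultures. Of the 3043 brightest measured genes, 2.20% were over 1.5-fold higher, against 5.59% of the 3043 dimmest.

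**Figure D1:**
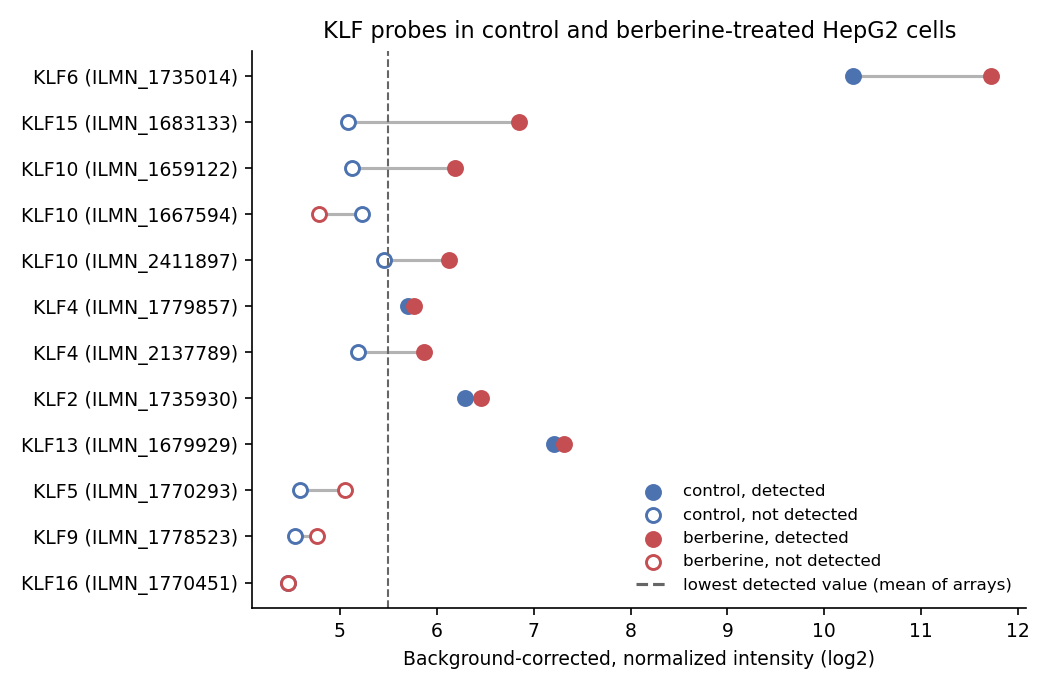
Background-corrected, normalized log2 intensity (x axis) of the 12 KLF probes (y axis, gene and probe) on the control (blue) and berberine (red) array. Filled circles are detected at a detection p under 0.01, open circles are not, and the dashed line is the mean over both arrays of the lowest detected value. KLF6 lies well above the detection line on both arrays, 4 probes are filled on the berberine array only, and the berberine circle lies to the right of the control circle for 11 probes.

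KLF15 and KLF10 crossed the detection limit after berberine treatment. KLF15 promotes amino acid breakdown and glucose production in the liver and is induced by glucocorticoids and fasting. The gene spans 126288125 to 126357408 on the minus strand of chromosome 3. Its probe, ILMN_1683133, read 130 in control cells, with a detection p of 0.0312, and 223 after treatment, with a detection p of 0. The control value was thus below the detection limit and the berberine value above it. The background-corrected values were 5.09 and 6.85. Because the control value was not detected, its fold is given as a lower bound against the lowest detected value of the control array, and KLF15 was at least 2.54-fold higher. In the deposited values, 138 and 221, the bound was at least 1.48-fold. The bound of KLF15 therefore passed 1.5-fold on the background-corrected scale and not on the deposited one. A bound under 1.5-fold does not show that the fold itself is smaller. The 2 deposited values differed by 1.61-fold, with the control value undetected. Of the 380 genes detected on the berberine array only, 45 had a bound of over 1.5-fold on the background-corrected scale.

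KLF10 was first described as an early gene induced by transforming growth factor beta (TGF-beta), and it represses transcription through the SIN3A corepressor. It has 3 probes. The probe ILMN_1659122 read 131 in control cells and 180 after berberine treatment, with a detection p of 0.0273 and 0.0013. The probe ILMN_2411897 had 140 and 177, with a detection p of 0.0143 and 0.0026. Both probes passed the detection limit in berberine-treated cells only. In control cells ILMN_2411897 lay just under that limit, at 140 against a lowest detected intensity of 142. ILMN_1659122 gave a bound of at least 1.60-fold higher and ILMN_2411897 of at least 1.53-fold, while the deposited values gave at least 1.18-fold and 1.16-fold. The remaining probe, ILMN_1667594, is annotated to another KLF10 transcript and was not detected on either array, with intensities of 134 in control cells and 131 after treatment. Their places within the transcripts were not analysed here.

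KLF2, KLF4 and KLF13 were dim on both arrays and differed by less than 1.5-fold at the probe detected on both arrays. KLF2 lies on chromosome 19 (16324826 to 16328685), KLF4 on chromosome 9 (107484852 to 107489769) and KLF13 on chromosome 15 (31326835 to 31435665). KLF2 maintains quiescence of endothelium and of T cells. Its probe, ILMN_1735930, read 174 in control cells and 195 after berberine treatment, which is 0.17 higher in log2, and 0.07 higher on the deposited scale. KLF13, a regulator of chemokine transcription in T cells, had 242 and 267, a difference of 0.10 and 0.07 in the deposited values. These differences are smaller than the SD of 0.30 of a single probe in the 731 dimmest probe pairs. Before normalization, the median intensity of all probes was higher on the berberine array as well, at 130.1 against 120.6. This shift bears on the intensities given here, and quantile normalization took it out of the main log2 differences.

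KLF4, a factor that halts proliferation in epithelia and is used to reprogram cells to pluripotency, has 2 probes, of which 1 was detected on both arrays. The probe ILMN_1779857 was detected on both arrays with intensities of 148 in control cells and 161 after treatment and a detection p of 0.00519 and 0.0039. Its log2 difference was 0.06. The probe ILMN_2137789 had 133 and 165, with a detection p of 0.0234 and 0.0026, and was at least 1.28-fold higher, or at least 1.09-fold in the deposited values. With its undetected control value taken as read, its log2 difference was 0.68, a gap of 0.62 from the first probe. Of the dim probe pairs, 12.7% had a larger gap. The size of the KLF4 difference thus depends on the probe.

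The remaining KLFs were not detected on either array. KLF5, which drives proliferation in the intestinal epithelium, read 115 in control cells and 139 after berberine treatment, with a detection p of 0.353 and 0.0416. KLF9, which is induced by glucocorticoids and thyroid hormone, had 113 and 130, with a detection p of 0.439 and 0.140. KLF16, a close relative of KLF13, had 109 and 118, with a detection p of 0.613 and 0.596. No fold is given for these genes, because both values lie below the detection limit. On the deposited scale their log2 differences were 0.17, 0.10 and 0.00, and the middle 90% of 30951 undetected probes spanned -0.16 to 0.16. KLF5 thus lay just past the upper edge of that range and the other two within it. Over all members, 11 of 12 probes were higher on the berberine array in the deposited values, against 49.4% of all probes and 49.5% of undetected probes. KLF4 and KLF10 contribute several probes each to this count, and 8 of these 12 were undetected on at least 1 array. The members were chosen with earlier results of these data known, so this count cannot show a rise of the whole family. Probes of KLF genes outside the list went both ways on the deposited scale. KLF3, for example, had 0.21 and -0.04 at its probes, and KLF12 had 0.08 and -0.02.

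**Figure D2:**
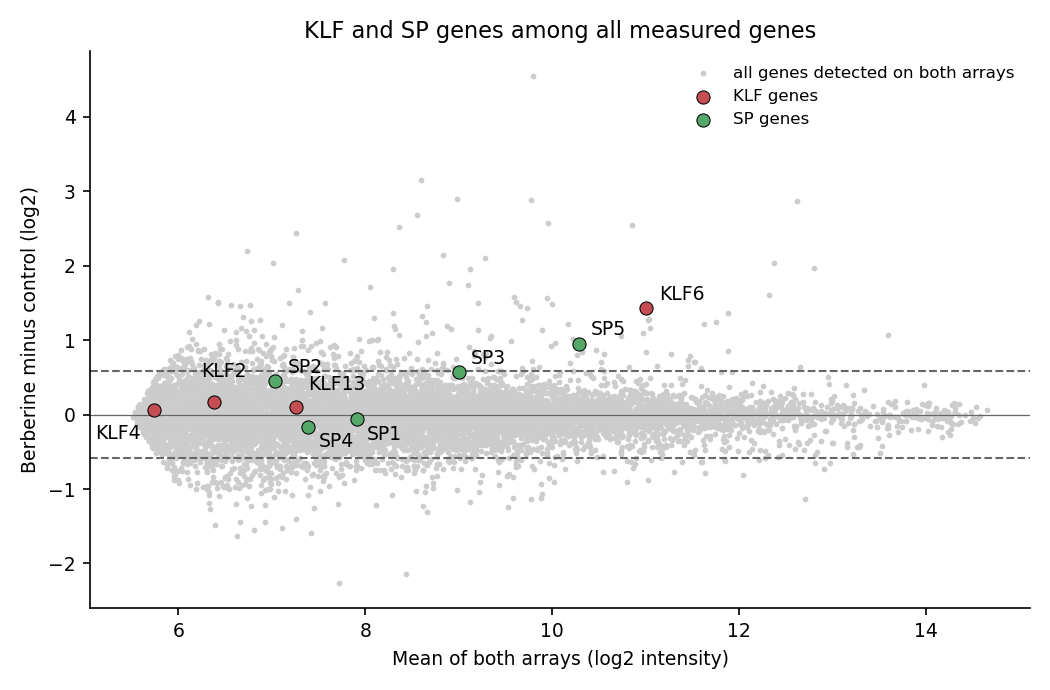
Berberine minus control difference (y axis, log2) against the mean of both arrays (x axis, log2 intensity) for all 9128 genes detected on both arrays (grey), with KLF genes in red and SP genes in green. The dashed lines mark 1.5-fold; KLF6 at 1.43 and SP5 at 0.95 lie above the upper line, SP3 at 0.57 just under it, and KLF2, KLF4 and KLF13 near 0.

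The relatives outside the list gave few detected genes. Of 8 other KLF genes, 7 had a probe and 6 of them were not detected on either array. KLF3, a repressor that binds CtBP, was detected on the berberine array only, at 1 of its 2 probes, with intensities of 125 in control cells and 156 after treatment. Its bound was at least 1.08-fold, and its second probe, at 134 and 141, was not detected. Of 9 SP genes, which bind the same GC boxes as the KLFs, 8 had a probe and 5 were detected on both arrays. Their median log2 difference was 0.45, and 1 was over 1.5-fold higher. SP5, a target of Wnt signalling that represses SP1-driven promoters, read 965 in control cells and 1900 after berberine treatment, a 1.94-fold increase and 1.83-fold in the deposited values. SP3, a widely expressed relative of SP1, had 507 and 749, a 1.48-fold difference that is just under the threshold, and its second detected probe gave a log2 difference of 0.31. SP2 had 208 and 262, with a difference of 0.45 (0.25 in the deposited values), and SP1, the founding member, had 337 and 346, with -0.06. SP4 gave -0.16 at its brightest probe and 0.31 at the second, so its direction depends on the probe.

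The detected genes of KLF partner proteins differed by less than 1.5-fold. Of 16 corepressors and coactivators, 12 were detected on both arrays, with a median log2 difference of -0.07 and 0 over 1.5-fold in either direction. The largest differences were those of the acetyltransferase EP300 (0.48), the corepressors CTBP2 (-0.47) and SIN3A (0.34) and the SIN3 complex subunit SAP18 (-0.20). Of 7 ubiquitin ligase genes that act on KLF proteins, 4 were detected on both arrays, again with 0 over 1.5-fold. VHL, the substrate receptor that also targets hypoxia-inducible factors, had -0.38 at its brightest probe and -0.31 and 0.13 at its other detected probes, FBXW7 had 0.16, WWP1 0.08 and STUB1 -0.04.

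Genes upstream of the KLFs were examined by the pathways known to induce them. The MEKK, ERK5 and MEF2 axis induces KLF2 and KLF4 in endothelium, and of its 11 genes 4 were detected on both arrays, with a median of -0.04, 1 over 1.5-fold higher and 1 lower. MAP3K3, a kinase at the top of this cascade, read 149.7 in control cells and 196 after berberine treatment, a log2 difference of 0.72, and MAPK7, which encodes ERK5, had -0.59. Both are dim, and in the deposited values their differences were 0.29 and -0.27, so that 0 genes of the axis passed 1.5-fold. HDAC4, which represses MEF2 factors, was detected on the control array only, at least 2.03-fold lower after berberine treatment. The deposited values gave a bound of 1.31-fold.

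KLF9 and KLF15 are textbook targets of the glucocorticoid receptor, and of 10 genes of the glucocorticoid response 5 were detected on both arrays, with a median of 0.04. Over 1.5-fold, 2 were higher and 0 lower, in the deposited values as well. DUSP1, a phosphatase of MAP kinases that is also an immediate early gene, read 389 in control cells and 1439 after berberine treatment, a 4.29-fold increase. MT2A, a metallothionein that also responds to metals, had 8353 and 18776, a 2.10-fold increase. The other genes of the list stayed under 1.5-fold or were not detected. The receptor gene NR3C1 had a log2 difference of 0.00, FKBP5 0.04 and SGK1 -0.34, while TSC22D3, PER1, ZBTB16, TAT and PCK1 were not detected.

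KLF10 and KLF11 are induced by TGF-beta, and of 16 genes of the TGF-beta axis 9 were detected on both arrays, with a median of 0.18, 2 over 1.5-fold higher and 0 lower. SMAD7, the inhibitory SMAD that TGF-beta induces and that KLF10 represses, read 266 in control cells and 466 after berberine treatment. Its log2 difference was 1.02, 0.71 in the deposited values, and its second probe gave 1.15. TGIF1, a corepressor of SMAD proteins, had a log2 difference of 1.06, and 1.08 at its second probe. SMAD6, the other inhibitory SMAD, had -0.27, and -0.18 in the deposited values. SKIL, a further SMAD repressor, was detected on the berberine array only and was at least 2.39-fold higher, or at least 1.43-fold in the deposited values. Among ligands and receptors, TGFB3 was detected on the berberine array only, with a bound of at least 1.15-fold, TGFBR2 had 0.40 and TGFBR3 0.13, and TGFB1, TGFB2 and TGFBR1 were not detected.

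Genes that KLFs regulate in other cells were read from the same arrays. Of 11 cell cycle genes regulated by KLF4, KLF5 or KLF6, 7 were detected on both arrays. Over 1.5-fold, 3 were higher and 0 lower, in the main and the deposited values, while the median was -0.11. CDKN1A, the cyclin-dependent kinase inhibitor p21 that KLF4 and KLF6 induce, read 833 in control cells and 1933 after berberine treatment, a log2 difference of 1.22. CDKN1B, a second inhibitor of this kind, had 541 and 1061, a difference of 1.03 and of 0.75 at its second probe. MYC, a growth-promoting transcription factor, had 2084 and 5111, a difference of 1.22 and of 1.36 at its second probe. Genes with opposite roles in proliferation were thus higher together, and the cyclin genes CCND1, CCNB1 and CCNE1 had -0.14, -0.11 and -0.30. Each of these genes also has regulators other than KLFs, and the part of KLF6 in their differences was not tested.

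**Figure D3:**
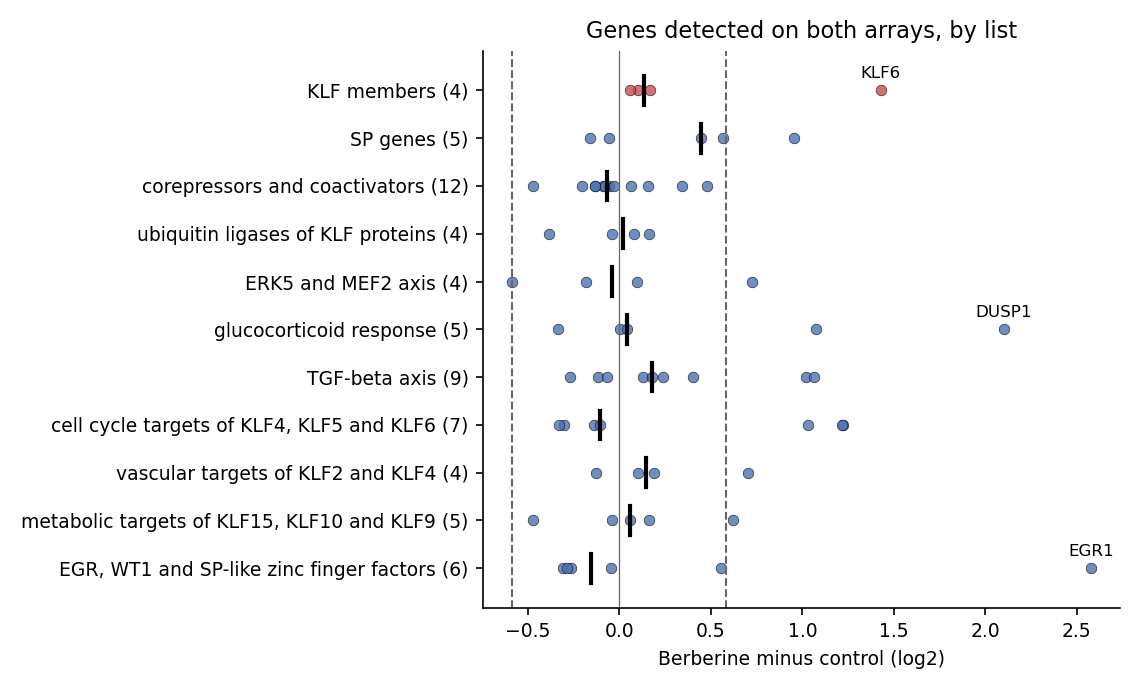
Berberine minus control difference (x axis, log2) of the genes detected on both arrays, for the KLF members (red) and each related list (blue, number of genes in brackets). The black bar is the median of each list and the dashed lines mark 1.5-fold; the medians lie between -0.15 and 0.45, while KLF6 at 1.43, DUSP1 at 2.10 and EGR1 at 2.58 stand apart from the other genes of their lists.

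Of 10 vascular genes regulated by KLF2 and KLF4 in endothelium, 4 were detected on both arrays. F3, which encodes tissue factor, had a log2 difference of 0.70, with 0.86 at its second probe, and was the single gene over 1.5-fold. In the deposited values it was 0.35 and 0 genes passed. NOS3, the endothelial nitric oxide synthase that KLF2 induces, had 0.19, and PLAT was detected on the berberine array only, with a bound of at least 1.18-fold. Of 8 endothelial markers, PECAM1 and CDH5 among them, 0 were detected on either array. Of 7 immune markers 2 were detected, CD68 and LYZ, at 0.30 and 0.29, with -0.45 at a second CD68 probe, and PTPRC was not. Of 6 fibroblast markers 1 was detected, ACTA2 at -0.06. Both cultures were of the HepG2 line, so these marker values are not a measure of other cell types. In RNA of a whole culture, a change in the share of cells that express a gene and a change of RNA per cell cannot be told apart.

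Few metabolic targets of KLF15, KLF10 and KLF9 were detected. Of 13 genes, 5 were detected on both arrays, with a median of 0.06. PPARGC1A, a coactivator of gluconeogenesis and mitochondrial biogenesis, read 250 in control cells and 350 after berberine treatment and was over 1.5-fold higher, with a log2 difference of 0.62. In the deposited values this was 0.40, under the threshold. BCAT2, an aminotransferase of branched-chain amino acids that KLF15 induces in mouse muscle, was detected on the control array only, with a bound of at least 1.33-fold lower. GPT, the alanine aminotransferase, had a difference of -0.47, or -0.25 on the deposited scale, and BCKDHA, a subunit of the branched-chain keto acid dehydrogenase, had 0.16. The gluconeogenic genes PCK1 and G6PC1, and PRODH and TAT of amino acid breakdown, were not detected on either array.

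For comparison, other zinc finger factors that bind GC-rich DNA were examined. Of 10 such genes, 6 were detected on both arrays, with a median of -0.15 and 1 over 1.5-fold higher. EGR1, an immediate early factor whose site overlaps GC boxes, read 492 in control cells and 2610 after berberine treatment, a 5.96-fold increase and 4.95-fold in the deposited values. WT1 gave -0.31 at its brightest probe and 0.29 at the second. ZBTB7B had 0.55, MAZ -0.28 and ZBTB7A -0.26. Among the KLF, SP and other GC-binding genes examined and detected on both arrays, EGR1, KLF6 and SP5 were those over 1.5-fold higher.

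**Figure D4:**
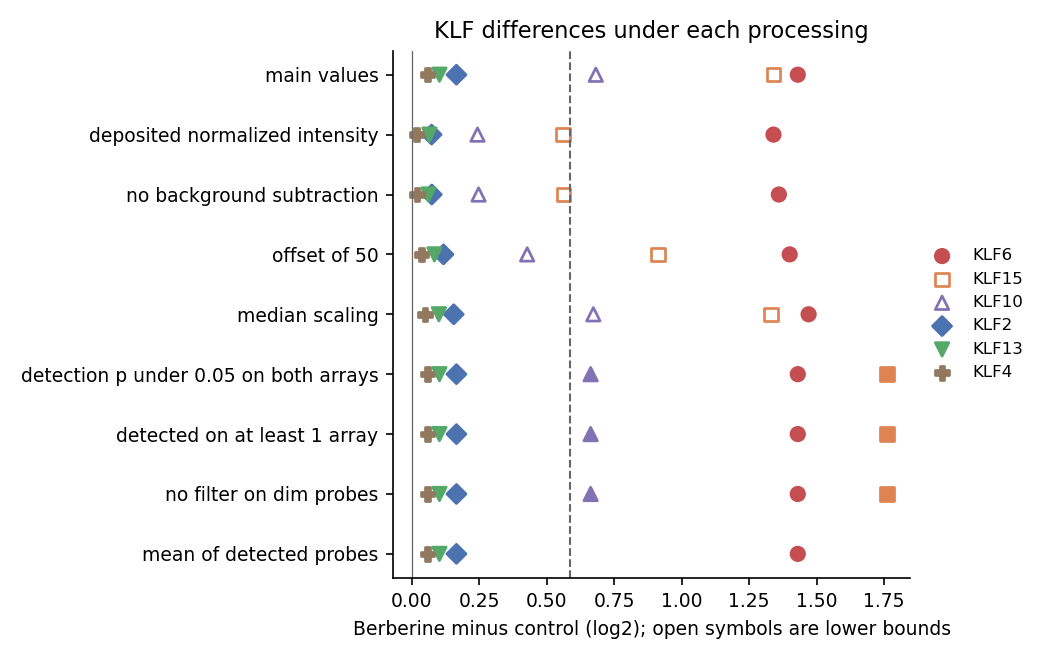
Berberine minus control difference (x axis, log2) of 6 KLF genes under the main processing and 8 alternatives (y axis). Open symbols are lower bounds for KLF15 and KLF10 and the dashed line marks 1.5-fold. KLF6 stays between 1.34 and 1.47, and KLF2, KLF13 and KLF4 stay below 0.17. The bounds of KLF15 and KLF10 fall to 0.56 and 0.24 in the deposited values. For KLF10, the main and deposited bounds are those of ILMN_1659122 and the filled symbols are values of ILMN_2411897.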

How the data were processed

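The authors deposited 2 tables of probe intensity from GenomeStudio software. Its version and the normalization method are not given in the sources used here. As deposited, the first table holds non-normalized intensity and a detection p-value that the software made for each probe from the negative controls. The other table holds normalized intensity. Main values came from the first table through neqc of limma 3.58.1 (R 4.3.3), which estimates background from the detection p-values and applies normexp, an offset of 16, quantile normalization and log2. Probes with a detection p-value under 0.01 were detected. A gene took its brightest detected probe, and a fold against an undetected value is a lower bound against the higher of that value and the lowest detected value. Genes over 1.5-fold were counted. The study paired this fold threshold with a cutoff on P, which was not applied here, so the counts cannot be set against its calls. With 1 array per group no test was run, and the number of arrays limits the precision. The steps were tested on simulated data. Further steps used Python 3.11.15, pandas 2.3.3 and numpy 2.4.6.

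The members and gene lists were chosen with earlier results of these data known. Named are all members, other KLF and SP genes detected on at least 1 array, and of each further list the genes over 1.5-fold, otherwise up to 4 with the largest difference. A few more list genes, chosen after their values were seen, are named for their roles. Alternatives covered background correction, offset, normalization, the detection filter and the choice of probe. Gene positions and upstream sequences are those of RefSeq (GRCh38.p14), searched for motifs by exact letters, or by the usual consensus for MEF2 and CArG sites.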

Additional observations from a re-analysis of the deposited data

How the results depend on the processing

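The differences of KLF6, KLF2, KLF4 and KLF13 changed by under 1 SD of probe error in all 8 alternatives, and KLF6 ranged from 1.34 to 1.47. The alternatives of filter and probe choice used the same probe of each of these genes, so they left the values unchanged. Only the deposited values, no background subtraction, the offset of 50 and median scaling could move them. In the deposited values, KLF2 went from 0.166 to 0.074 and KLF4 from 0.0593 to 0.0187. The log2 bound of KLF15 was 1.34. It was 0.561 in the deposited values, 0.563 without background subtraction and 0.912 with an offset of 50. The bound of KLF10 was 0.682, and 0.244, 0.248 and 0.428 under the same settings. The cause was not tested. For KLF10, the 0.682 and the deposited 0.244 are those of ILMN_1659122, the probe with the larger bound. With no filter KLF10 had a measured difference of 0.663, which is that of its brightest probe, ILMN_2411897. The looser filters were detection p under 0.05 on both arrays, detection on at least 1 array, and no filter. Under each, KLF15 had a measured difference of 1.76 in place of a bound. The number of members over 1.5-fold higher was then 3, not 1, through KLF15 and KLF10. Under the first of these filters and the second the median of the members was 0.415. With detection on at least 1 array, KLF15 and KLF10 entered by passing on the berberine array. That filter itself thus favoured an upward call for both genes and a higher median. Under the mean of detected probes KLF10 and KLF15 had no value. Over all genes, 131 were higher and 92 lower in the deposited values and without background subtraction, 213 and 218 with an offset of 50, and 671 and 671 with no filter. With detection on at least 1 array 533 were higher and 544 lower, and with detection p under 0.05 on both arrays 451 and 454. The numbers of genes measured under the looser filters are not given here, so no share of all genes stands beside the 3 members. Of the values recomputed, 0 turned their sign. Counts have no sign, and the bounds of KLF15 and KLF10 could hardly be negative, so this says little about them. No paired analysis was possible because each group has 1 array, so the groups share fewer than 2 replicate numbers. KLF5, KLF9 and KLF16 were below the detection limit on both arrays, so no fold is given for them.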
